A study of Macaca mulatta with 51 samples.

Results

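The proteins of the cytosolic ribosome are in most cases encoded by a single gene each, and the table of counts held 81 genes with a symbol of this family (RPL or RPS followed by a number, RPLP0, RPLP1, RPLP2 or RPSA) among 16033 genes. Of these, 75 encode the standard proteins and are the members described here, 31 of the small (40S) and 44 of the large (60S) subunit. The other 6 (RPL3L, RPL10L, RPL22L1, RPL26L1, RPL39L and RPS27L) are paralogs, copies that can take the place of a standard protein in some cells, and were kept apart. Rhesus macaques (Macaca mulatta) with obesity on a high-fat diet, males and ovariectomized females, received daily injections of native human FGF21, a hormone of lipid and energy metabolism. Punch biopsies of subcutaneous abdominal adipose tissue (AT) and of gastrocnemius skeletal muscle (SM) were taken before treatment (pre), at its end (post) and after a period without the drug (washout), and there were 10, 9 and 8 AT libraries from 10 animals and 6, 8 and 7 SM libraries from 8 animals. The pre-treatment biopsy of the same animal is the only control, and no animal was given vehicle over the same time.

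Each ribosome carries its proteins in fixed proportions, and copies left unassembled are degraded, so that cells make the whole set together. The mRNAs begin with a run of pyrimidines (a TOP sequence) that lets the kinase mTORC1 and the protein LARP1 set their translation and stability when nutrients and growth signals change. In tissues with many cell types, ribosomal protein mRNA takes a larger part of the mRNA in cells that grow, divide or secrete than in mature fat cells or muscle fibers. Several members have been studied for roles outside the ribosome as well, as described beside them.

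The 48 libraries held 14455195 to 23940980 counts, with a median of 18578869. Levels are normalised read counts (CPM), scaled by the library size after adjustment by TMM, the normalization of the tests, within each tissue. The tissues matched their labels: the adipocyte hormone ADIPOQ lay between 1166 and 4604 CPM in AT and at 128 CPM or less in SM. The muscle creatine kinase CKM lay between 3807 and 29200 CPM in SM and at 7.92 CPM or less in AT. One SM library stood apart, the post-treatment library of animal 21189, in which the 13 skeletal fiber genes summed to 80930 CPM while the other 20 SM libraries held between 143200 and 345500 CPM. A gene was called differentially expressed (DE) where edgeR's quasi-likelihood test of time point, with the animal in the model and Benjamini-Hochberg adjustment, gave an adjusted p below 0.05 and the size of the log2 fold change exceeded 0.26. Of the 75 members, 74 passed the filter on low counts in each tissue. The remaining member, RPS10, had 147 counts over all 48 libraries, between 0 and 12 per library, although its protein is a standard part of the 40S subunit, and it was not tested. Many members have near-identical processed pseudogenes in primate genomes, and how reads that fit several places were counted is not given in the sources used here, so that the level of a single member is less certain than its change between libraries.

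In AT, the members took 1.36% to 2.47% of the counts of a library pre-treatment (mean 2.05% ± 0.295 SD, n = 10), 2.28% to 2.98% post-treatment (mean 2.59% ± 0.259, n = 9) and 1.67% to 2.77% at washout (mean 2.25% ± 0.345, n = 8). The lowest AT value, 1.36%, was that of animal 20275 pre-treatment, and the next was 1.89%. In SM, the members took 1.31% to 1.92% pre-treatment (mean 1.57% ± 0.254, n = 6), 1.18% to 3.79% post-treatment (mean 2.10% ± 0.923, n = 8) and 1.09% to 1.27% at washout (mean 1.2% ± 0.0666, n = 7). The 8 SM post-treatment libraries fell into a lower set of 5 between 1.18% and 1.65% and a higher set of 3, animals 24849, 21866 and 21189, at 2.61%, 2.98% and 3.79%. With library sizes scaled by TMM, the normalization used in the tests, this split was not kept. The 3 libraries then held 2.07%, 2.22% and 2.60%, beside 2.07% for animal 19832 and 1.93% for 23004. At washout all 7 SM libraries lay below the lowest SM pre-treatment library in this unscaled share. With TMM scaling they held 1.07% (animal 22130) to 1.41% (animal 23004). The lowest pre-treatment library was then at 1.28% (animal 24849), so that the 2 groups overlapped.

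**Figure D1:**
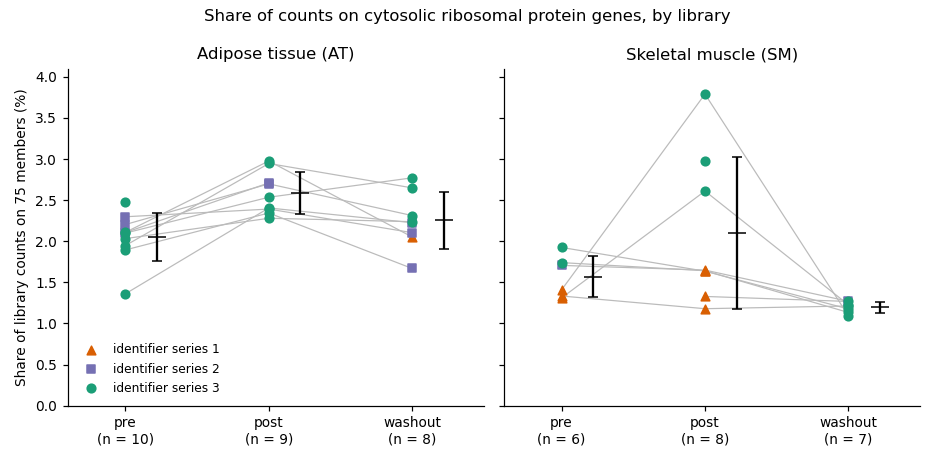
Share of the counts of each library that fell on the 75 members (percent, vertical axis) by time point in AT (left) and SM (right). Each point is a library, grey lines join the libraries of an animal, colors and shapes give the number series of the library identifier, and the horizontal marks with bars give mean ± SD; the 3 highest SM libraries, at 2.61% to 3.79%, are post-treatment and belong to series 3, and the SM washout libraries lie between 1.09% and 1.27%.

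From pre- to post-treatment in AT, 51 of 74 ribosomal protein mRNAs were DE and higher. All 74 had a log2 fold change above 0, and 0 were DE and lower. In this comparison 54.3% of the 13367 genes tested lay above 0, 6.98% were DE and higher and 8.49% were DE and lower. An unadjusted p under 0.05 was found for 71 members and for 34.3% of all genes tested. The shift was small for each gene, from 0.07 to 0.57 on the log2 scale with a median of 0.34, or 1.27-fold, beside a median of 0.03 over all genes tested, and the standard errors of the members lay between 0.0816 and 0.164. The 40S members, 23 of 30 called, had a median of 0.36, and the 60S members, 28 of 44 called, a median of 0.32. Adipose tissue is a mixture of cell types, and in bulk RNA a larger part of the tissue taken by cells rich in ribosomal protein mRNA and more such mRNA per cell cannot be told apart.

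RPS3A, a 40S protein near the mRNA exit channel, rose most. Its level was 115 to 262 CPM pre-treatment (median 223), 206 to 410 CPM post-treatment (median 305) and 165 to 301 CPM at washout (median 222). The pre- and post-treatment ranges overlapped, and the level was higher in 8 of 9 animals, with a log2 fold change of 0.57 ± 0.14 (SE, quasi-likelihood adjusted p = 0.0165). RPL17, a protein at the exit of the peptide tunnel, rose by 0.52 ± 0.13 (adjusted p = 0.018), and RPL31, which also lies at that exit, by 0.49 ± 0.12 (adjusted p = 0.0135). The median level of RPL17 went from 93.6 CPM pre-treatment to 138 CPM post-treatment and 110 CPM at washout.

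Of the 40S members named by role, RPS6, the substrate of S6 kinase that is used as a readout of mTORC1 activity, went from 277 to 622 CPM pre-treatment (median 484) to 507 to 845 CPM post-treatment (median 680), a log2 fold change of 0.43 ± 0.12 that was DE. RPS27, a zinc finger protein of the subunit, was 256 to 374 CPM pre-treatment (median 298) and 324 to 572 CPM post-treatment (median 408), and RPS19, the member most often mutated in Diamond-Blackfan anemia, was 108 to 209 CPM (median 170) and 179 to 265 CPM (median 219). Both were higher in 9 of 9 animals and DE, with log2 fold changes of 0.43 ± 0.10 for RPS27 and 0.47 ± 0.11 for RPS19. RPS3, which also acts in DNA repair, RPS4X, encoded on the X chromosome, and RPS27A, made as a fusion with ubiquitin, rose by 0.36, 0.34 and 0.47. RPSA, known also as a laminin receptor, was not DE at 0.26 ± 0.11 (adjusted p = 0.0952), although it was higher in 8 of 9 animals.

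Of the 60S members named by role, RPL5 and RPL11, which together with a ribosomal RNA bind MDM2 and so raise p53 when ribosome assembly fails, rose by 0.43 and 0.37. RPL3, a protein close to the site of peptide bond formation, RPL7, RPL13A, which is also known for silencing of mRNAs in interferon-treated myeloid cells, and RPL26, which binds p53 mRNA, rose by 0.32, 0.27, 0.34 and 0.34. The 3 stalk proteins recruit elongation factors, and of these RPLP1 was DE at 0.39 ± 0.13, while RPLP0, a common reference gene of quantitative PCR, and RPLP2 were not, at 0.29 ± 0.12 and 0.25 ± 0.12. RPLP0 was 392 to 853 CPM pre-treatment (median 675), 618 to 989 CPM post-treatment (median 751) and 500 to 742 CPM at washout (median 547), so that its level was higher post-treatment than pre-treatment in 8 of 9 animals without passing the test. RPL10, RPL41 and RPL22 were not DE at 0.30, 0.29 and 0.21.

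The smallest changes belonged to RPL37A, RPL22 and RPL39. RPL37A was 134 to 225 CPM pre-treatment (median 159), 131 to 237 CPM post-treatment (median 172) and 137 to 182 CPM at washout (median 165), with overlapping ranges. Its log2 fold change of 0.07 ± 0.10 (adjusted p = 0.671) was 1.05-fold, and it turned below 0 when animal 21866 was left out. RPL39, a short protein of the peptide tunnel, was higher in 5 of 9 animals, at 0.21 ± 0.16. All 9 animals had higher levels post-treatment for 10 members, among them RPL15, RPL27A, RPL35, RPL37, RPS12, RPS19, RPS20 and RPS27, where 2.84% of all genes tested were higher in every animal. Of these 10, RPL27A alone was not DE (adjusted p = 0.0655).

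**Figure D2:**
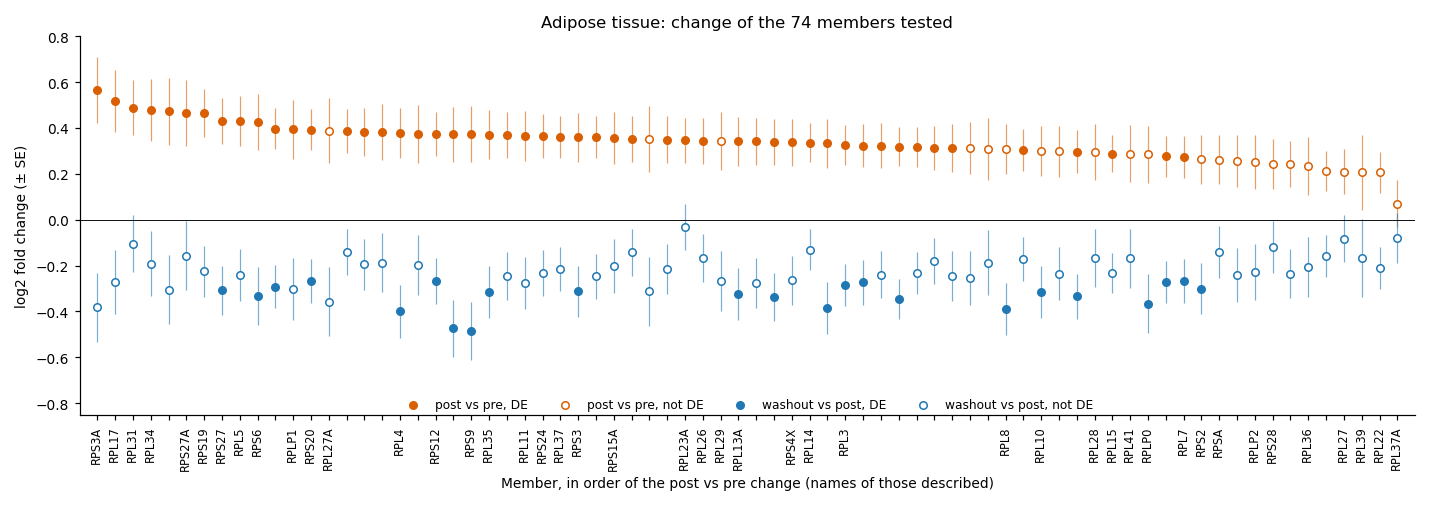
Log2 fold change in AT (vertical axis, bars ± SE) of the 74 members tested, in order of the post vs pre change, for post vs pre (orange) and washout vs post (blue). Members named in the text are labelled and filled points are DE; every orange point lies above 0, from 0.07 to 0.57, and every blue point below 0, from -0.03 to -0.49.

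The animals did not contribute alike. The median difference over the 74 members within an animal was 0.82 for animal 20275, 0.65 for animal 21866, 0.49 for animal 26292 and 0.36 for animal 21189. It was 0.29 for both 20456 and 23004, 0.19 for 24849, 0.07 for 20261 and -0.04 for 22130, in which 28 of 74 members were higher post-treatment. In animals 20275, 21866 and 23004, all 74 members were higher. Library identifiers form 3 number series whose meaning is unknown. Both libraries of an animal came from series 3 in 6 animals (medians 0.07 to 0.82), from series 2 in 2 animals (0.29 in each) and from different series in animal 22130. The count of 51 DE members was 10 without animal 20275, 15 without 21866, 26 without 21189 and 27 without 26292, and it was 18 without the pre-treatment library of 20275 alone, although the median log2 fold change without that library was still 0.29.

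Cell type markers moved in the same comparison. All 17 macrophage genes measured lay above 0 and 7 were DE and higher, among them GPNMB (log2 fold change 1.41), and their summed level was 1791 to 6646 CPM pre-treatment, 4118 to 19660 CPM post-treatment and 1221 to 7236 CPM at washout. Of 15 genes of progenitors and their matrix, 12 lay above 0 and 3 were DE and higher, and of 7 adipocyte genes 3 were DE and lower. Within animals, members and macrophage genes did not move side by side throughout. The median difference of the macrophage genes was 2.69 in animal 20275 and 1.25 in 21189, but it was -0.15 in 21866, -0.34 in 20456 and -0.31 in 23004, whose members were higher by 0.65, 0.29 and 0.29. It was 1.805 in 22130, whose members were at -0.04. The median difference of the progenitor and matrix genes was 0.65 in 20456, 0.53 in 22130 and 0.19 in 23004. In 21189, 21866 and 20275 it was 0.04, 0.006 and -0.001. Of other lists, 10 of 10 T cell, 1 of 8 smooth muscle and pericyte and 0 of 4 erythroid genes lay above 0. Apart from these values, the part of cell composition in the rise of the members was not tested.

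From post-treatment to washout in AT, 23 of 74 members were DE and lower and 0 lay above 0 (49.7% of all genes tested did). None was DE and higher, where 17.8% of all genes tested were DE and lower and 17.6% DE and higher. An unadjusted p under 0.05 was found for 41 members and for 46.8% of all genes tested, and 9 members were lower in 8 of 8 animals, where 5.87% of all genes were. The median was -0.24, or 0.845-fold, beside a median of -0.0021 over all genes tested, and the change was DE for 9 of 30 members of the 40S and 14 of 44 of the 60S subunit. RPS9, a 40S protein at the entry of the mRNA channel, was 347 to 561 CPM post-treatment (median 407) and 238 to 421 CPM at washout (median 283), fell by 0.49 on the log2 scale (SE 0.13, quasi-likelihood adjusted p = 0.00628), and 7 of 8 animals had lower levels. RPL4, which lines the peptide tunnel, fell by 0.40, with lower levels in 8 of 8 animals.

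The stalk protein gene RPLP0 was among the 23, with a change of -0.37 ± 0.13, as were RPL3, RPL7, RPL10, RPL13A, RPS3, RPS6 and RPS27, at -0.29, -0.27, -0.32, -0.32, -0.31, -0.33 and -0.31. RPL23A, RPL37A and RPL27 changed least, at -0.03, -0.08 and -0.08. RPL23A, which binds the signal recognition particle at the tunnel exit, was 134 to 192 CPM pre-treatment (median 164), 169 to 275 CPM post-treatment (median 202) and 174 to 229 CPM at washout (median 202). Its medians post-treatment and at washout were thus alike. The 23 calls were 5 without animal 26292, 10 without 23004 and 10 without 24849, and the change was negative in the 7 animals with medians between -0.51 and -0.07 and 0.03 in animal 21189. Both libraries came from identifier series 3 in 3 animals, with medians between -0.25 and 0.03. In the other animals the 2 libraries came from different series, and the medians lay between -0.51 and -0.19. The part of library series in this change was not tested apart from time point. All 17 macrophage genes were DE and lower at the same time, and so were 6 of 15 progenitor and matrix genes, of which 3 lay above 0. Of 8 smooth muscle and pericyte genes, 8 lay above 0 and 5 were DE and higher, as were 4 of 9 endothelial and 3 of 4 erythroid genes. In animal 23004 the median of the macrophage genes was higher at washout, by 0.29, while that of the members was -0.33; beyond such values the part of these cell types in the change of the members was not tested.

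At washout compared to pre-treatment in AT, 62 of 74 members lay above 0 (46.9% of all genes tested did), with a median of 0.09. Of the 60S members 2 were DE and higher and 0 of 74 members lower, where 12.5% of all genes tested were DE and higher and 7.96% lower, and 5 members had an unadjusted p under 0.05, where 34% of all genes tested did. Both shares of members lay below those of all genes. RPL31 was 15.3 to 70.1 CPM pre-treatment (median 26.4) and 27.7 to 67.9 CPM at washout (median 38.1), with a log2 fold change of 0.38 ± 0.12 (quasi-likelihood adjusted p = 0.0304), and it was higher in 6 of 8 animals. RPL23A was higher in 7 of 8 animals, at 0.31 ± 0.10 (adjusted p = 0.032). At the other end, RPS9 and RPL8 were at -0.11 and -0.08 and not DE. Neither call survived when the pre-treatment library of animal 20275 or the animal 20261, 21189 or 26292 was left out, which gave 0 calls, and there was 1 call without 20275, 21866 or 23004 and there were 6 without 24849.

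**Figure D3:**
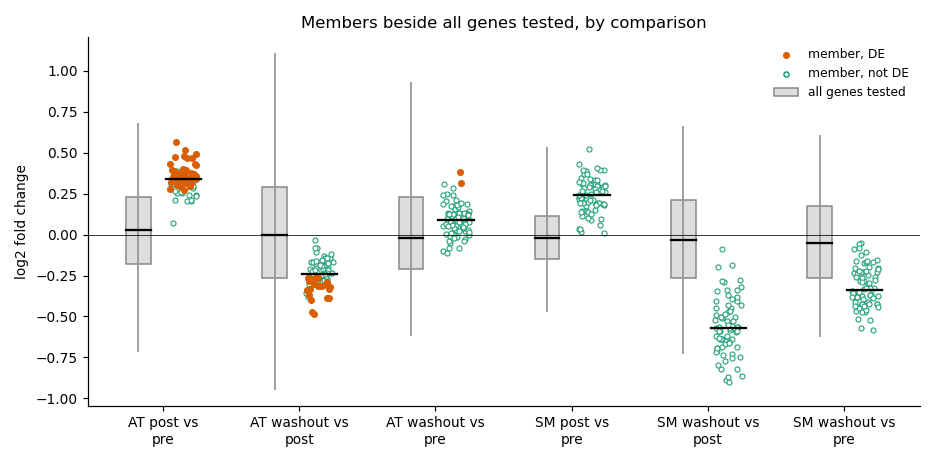
Log2 fold change (vertical axis) of the 74 members in each of the 6 comparisons (points, with a line at the median) beside all genes tested in that comparison (box, the middle 50%; whisker, 5% to 95%; line, median). Orange points are DE; members lie above 0 in both post vs pre comparisons and below 0 in both washout vs post comparisons, and DE members occur only in AT.

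In SM, the same genes were higher post-treatment without passing the test. All 74 members lay above 0 from pre- to post-treatment, where 46.2% of the 12617 genes tested did, with a median of 0.24, but 0 were DE by edgeR's quasi-likelihood test, DESeq2 or voom, 3 had an unadjusted p under 0.05 (3.25% of all genes tested did), and 0 of all genes tested were DE in either direction. RPS15A had the largest value, 0.52 ± 0.30, followed by RPS27A at 0.43 ± 0.28 and RPS3A at 0.40 ± 0.20. RPS2, RPL28 and RPLP2 had the smallest, at 0.01, 0.01 and 0.04. RPS3A was 129 to 190 CPM pre-treatment (median 149) and 119 to 320 CPM post-treatment (median 215). Its 3 highest post-treatment libraries, at 266, 293 and 320 CPM, were those of animals 21866, 21189 and 24849, and 4 of 6 animals with both libraries were higher.

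The positive values in SM were largest in these libraries. Within animals the median over members was 0.93 for 21189 and 0.81 for 24849, 0.24 for 23004, -0.03 for 22130, -0.17 for 19832 and -0.26 for 20275. Without the 3 post-treatment libraries, 45 of 74 members lay above 0 and the median was 0.02. Among the 8 post-treatment libraries they alone came from identifier series 3. Their skeletal fiber genes summed to 80930 to 147900 CPM where the others held 164400 to 345500 CPM, without overlap. Their progenitor and matrix genes summed to 7366 to 27770 CPM where the others held 402.5 to 10750 CPM, with overlap. In SM only animal 22130 had pre- and post-treatment libraries of the same series. Thus library series, fiber content and time point cannot be told apart for these values.

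From post-treatment to washout in SM, the members were lower throughout. None of the 74 lay above 0 (46.4% of all genes tested did), 56 were lower in 7 of 7 animals, where 3.84% of all genes tested were, and the median was -0.57, or 0.674-fold, against -0.03 over all genes tested. By edgeR's quasi-likelihood test 0 members were DE at a smallest adjusted p of 0.107, although 63 had an unadjusted p under 0.05, where 17.3% of all genes tested did. Of all genes tested 0.00793% were DE and lower and 0.182% DE and higher. Calls depended on the fit: voom gave 0, DESeq2 gave 40, the fit without the animal 30 and the fit with the library identifier series as a covariate 67. Without the 3 libraries named above, the median was -0.34 and 0 of 74 members lay above 0. The 5 post-treatment libraries that then remained were all of series 1, while the washout libraries of their animals were of series 3 in 4 animals and of series 2 in 1, so that series and time point cannot be told apart for these values.

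RPS15A, RPL17 and RPS27A had the lowest values, -0.90 ± 0.29, -0.89 ± 0.25 and -0.87 ± 0.27. RPS27A was 74.3 to 272 CPM post-treatment (median 120) and 59.99 to 86.1 CPM at washout (median 72.9). RPL17 was 43.0 to 93.9 CPM (median 62.8) and 17.1 to 42.0 CPM (median 37.0), so that its post-treatment and washout libraries did not overlap. RPS2, RPL28 and RPLP0 had the highest values, -0.09, -0.19 and -0.20. Animal 21189 had the largest median within an animal, -1.27, and animal 20456 the smallest, -0.11, and in the 2 animals with both libraries in series 3 the medians were -1.27 and -0.75.

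At washout compared to pre-treatment in SM, 0 of 74 members lay above 0 (43.6% of all genes tested did) and the median was -0.34. Again 0 were DE by the quasi-likelihood test, DESeq2 or voom, 14 had an unadjusted p under 0.05 (13.4% of all genes tested did), and 15 were lower in 6 of 6 animals (5.45% of all genes were). Of all genes tested 0 were DE and lower and 0.0634% DE and higher, while the fit with the identifier series called 39. RPL34, RPL3 and RPL17 had the lowest values, -0.58 ± 0.24, -0.57 ± 0.35 and -0.52 ± 0.26, and RPL10, RPL4 and RPS2 the highest, at -0.05, -0.06 and -0.08. The medians within animals were -0.77 in 19832, between -0.47 and -0.22 in 4 animals and 0.06 in 24849.

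The difference between AT and SM in the change of a member was tested as an interaction of tissue and time. For post vs pre, 0 of 74 members differed (0 at an unadjusted p under 0.05, smallest adjusted p = 0.654), where 0.0487% of the 12322 genes tested in both tissues did and 10.6% had an unadjusted p under 0.05. For washout vs pre, 4 members differed, RPL14, RPL23A, RPL31 and RPL34, where 17.5% of the genes did, so that a smaller share of members than of all genes was called, and 27 members had an unadjusted p under 0.05, where 30% of all genes did. Without the replicate block 1 member was called. Their AT change minus the SM change was 0.52 ± 0.17, 0.53 ± 0.18, 0.75 ± 0.24 and 0.80 ± 0.27. RPL34 was 47.0 to 93.8 CPM pre-treatment and 67.4 to 109 CPM at washout in AT, and 34.6 to 64.6 CPM and 25.4 to 36.4 CPM in SM, so that the tissues moved apart. Over all 74 members, 67 had a more positive change in AT than in SM at washout, and the share of all genes that did was not counted. The median difference was 0.34 over members and -0.0092 over all genes tested in both tissues. Both libraries of an animal came from the same identifier series in 2 of 6 animals in SM and 4 of 8 in AT. The part of library series in this difference was not tested.

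The paralogs did not all move with the members. RPL22L1, which can replace RPL22 and whose level the RPL22 protein is known to restrain, was 35.1 to 61.4 CPM in AT pre-treatment (median 45.7), 48.3 to 161 CPM post-treatment (median 61.1) and 35.1 to 79.6 CPM at washout (median 52.6). It rose post-treatment by 0.63 ± 0.20 (quasi-likelihood adjusted p = 0.0427), in 8 of 9 animals, a larger value than that of any member, while RPL22 itself, at 0.21 ± 0.09, was among the members that changed least. With an animal left out RPL22L1 ranged from 0.43 to 0.74, beside 0.46 to 0.67 for RPS3A, the member that rose most. The highest post-treatment value, 161 CPM, was that of animal 20275. In SM, RPL22L1 was 14.2 to 22.7 CPM pre-treatment, 14.4 to 59.5 CPM post-treatment and 8.61 to 15.6 CPM at washout, lower at washout than post-treatment in 7 of 7 animals without being DE (-1.18 ± 0.28).

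RPL39L, a paralog of RPL39 found mostly in male germ cells, went against the members in AT. It was 0.653 to 3.88 CPM pre-treatment (median 2.63), 0.337 to 2.87 CPM post-treatment (median 1.31) and 2.13 to 4.21 CPM at washout (median 3.20), at no more than 87 counts in a library. It fell post-treatment by 0.82 on the log2 scale (SE 0.27, adjusted p = 0.0454), with lower levels in 7 of 9 animals, and rose at washout compared to post-treatment by 1.30 ± 0.27 (adjusted p = 0.00139), in 8 of 8 animals. RPL39 was not DE in either comparison, at 0.21 ± 0.16 and -0.17 ± 0.17. RPS27L, a p53 target, was not DE in AT post-treatment (0.34 ± 0.12, adjusted p = 0.0572), and RPL26L1 was at -0.17 ± 0.09. RPS27L was 20.9 to 67.3 CPM in SM pre-treatment and 17.6 to 27.8 CPM at washout, and its washout vs pre change differed between the tissues by 1.003 ± 0.27 (adjusted p = 0.00909). RPL10L had 8 counts in all libraries together and was not tested.

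RPL3L and RPL3 separated the tissues. RPL3L, which takes the place of RPL3 in skeletal muscle and heart fibers, was 0 to 0.385 CPM in AT and 114 to 753 CPM in SM, while RPL3 was 278 to 522 CPM in AT and 23.8 to 258 CPM in SM. In pre-treatment libraries RPL3 was lower in SM than in AT, with a log2 difference (SM minus AT) of -1.72 ± 0.28 (quasi-likelihood adjusted p = 1.01e-06), the lowest value of the 74 members. Among 74 members, 44 were higher and 4 lower in SM than in AT pre-treatment, where 35.3% of the genes tested were higher and 41.8% lower. RPS24, RPS2 and RPLP1 were higher in SM by 1.62, 1.44 and 1.44, and RPL28 and RPLP2 were among the members that were lower, at -0.36 and -0.37. The direction for the members depended on the scaling between tissues. TMM gave them a median of 0.33, beside -0.16 over all genes tested, but with library size only, an alternative added after seeing the data, 3 were higher and 36 lower, with a median of -0.40 beside -0.90 over all genes (17.6% higher and 61.3% lower). The share of counts on members was likewise lower in SM than in AT pre-treatment, at 1.57% and 2.05%. With library size only RPS24, RPS2 and RPLP1 were still higher, by 0.89, 0.69 and 0.71, and RPL3, RPL28 and RPLP2 were still lower, at -2.48, -1.11 and -1.10. These values are of the same gene in both tissues and say nothing of the levels of different genes, whose lengths were not used here.

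The pair also separated the SM libraries. The post-treatment RPL3 level was 258 CPM in animal 21189, 192 CPM in 21866, 96.7 CPM in 24849 and 79.9 CPM in 20275, and between 32.6 and 45.6 CPM in the other 4 animals. RPL3L was 114, 146, 280 and 351 CPM in the former, in the same order, and 378 to 753 CPM in the latter. Hence the libraries with the most RPL3 had the least RPL3L, and they were the ones with the lowest sums of skeletal fiber genes. Pre-treatment, RPL3 was 52.5 to 82.3 CPM and RPL3L 252 to 706 CPM, and at washout 23.8 to 78.2 CPM and 205 to 461 CPM. Neither gene was DE between time points in SM.

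**Figure D4:**
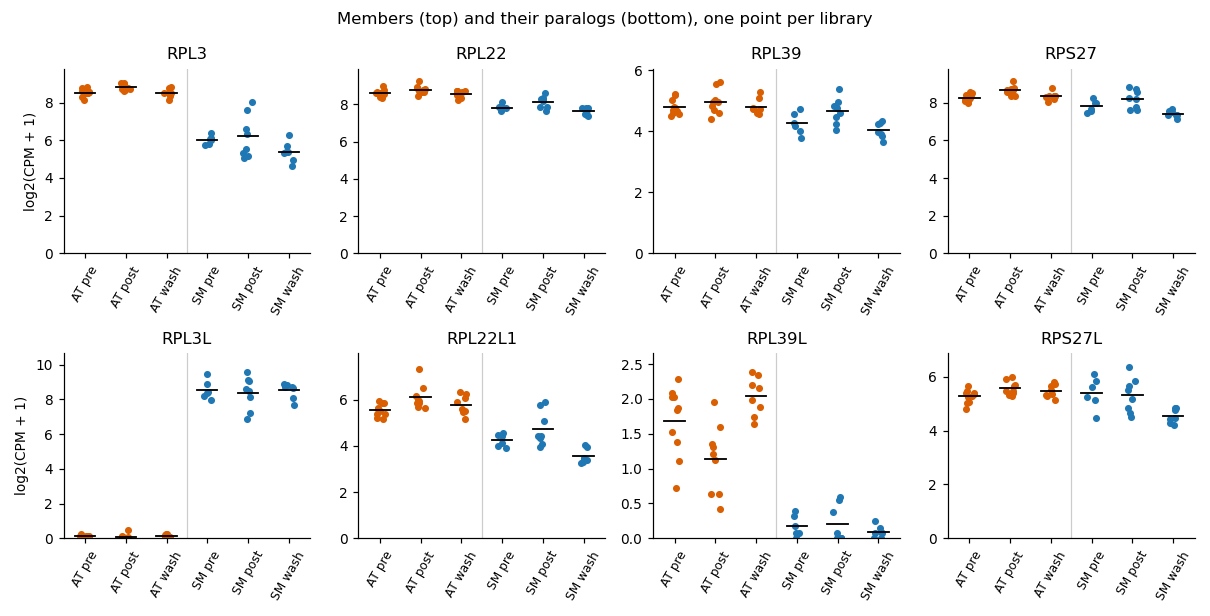
Levels of 4 members (top row) and their paralogs (bottom row) as log2(CPM + 1) on the vertical axis, by tissue and time point. Each point is a library and the line is the group mean; RPL3L is at or near 0 in AT and at 114 to 753 CPM in SM, and RPL39L within AT has its lowest mean post-treatment.

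Genes that belong to the same program were counted in the same way, from lists written for this work. Of 17 other genes with a TOP sequence, such as translation elongation factors, 17 lay above 0 in AT post-treatment and 7 were DE and higher, among them EEF1A1, which brings aminoacyl-tRNA to the ribosome (0.38 ± 0.13), and EIF3E (0.39 ± 0.08), and at washout compared to post-treatment 9 were DE and lower, led by PABPC1, the poly(A) binding protein, at -0.58 ± 0.10. FAU, which encodes another 40S protein as a fusion, rose by 0.37 ± 0.10, and RPL36AL rose by 0.26 ± 0.07 in 9 of 9 animals, while RACK1 was not DE.

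Genes that build ribosomes were counted in the same way, in AT from pre- to post-treatment. In this comparison 54.3% of all genes tested lay above 0, 6.98% were DE and higher and 8.49% DE and lower. Of 89 ribosome biogenesis factors, 44 lay above 0 in AT post-treatment, with 6 DE and higher, led by RSL24D1 (0.47 ± 0.11), and 2 DE and lower, among them SBDS, which releases eIF6 from the 60S subunit (-0.44 ± 0.12). The share of these factors that were DE and higher was near that of all genes. Of 15 genes of RNA polymerase I and its factors, 11 lay above 0 with a median of 0.12, and 4 were DE and higher and 0 lower, with TAF1A at 0.58 ± 0.16. Of 24 initiation factors without a TOP sequence on the list, 1 was DE and higher and 4 lower, among them EIF4G1, the scaffold of the cap-binding complex, at -0.44 ± 0.09. On a list of 18 genes written for the mTORC1 pathway and TOP control, 9 lay above 0, with a median of -0.03. The 2 that were DE and higher were the transcription factors MYC (0.38) and MAX (0.31), written on the list beside the genes of the pathway. DE and lower was 1 gene.

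The ribosome of the mitochondrion, built from other proteins, differed from the cytosolic one in AT. Of 71 mitochondrial ribosomal proteins, 14 lay above 0 post-treatment, 0 were DE and higher and 5 DE and lower, with a median of -0.10, and of 74 nuclear subunits of the respiratory chain 10 lay above 0, with a median of -0.17 and 4 DE and lower. Of all genes tested 54.3% lay above 0 and 8.49% were DE and lower. The shares of both sets that were DE and lower were below that of all genes, so that the difference lay in direction and median. In SM from post-treatment to washout the 3 sets lay on the same side: 7 of 71 mitochondrial ribosomal proteins and 5 of 73 respiratory chain subunits lay above 0, at medians of -0.23 and -0.39, beside 0 of 74 members at -0.57, and none of the genes was DE by the quasi-likelihood test (24, 43 and 63 had an unadjusted p under 0.05). Of all genes tested in SM 46.4% lay above 0 and 17.3% had an unadjusted p under 0.05.

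Levels of members within a tissue varied together. After removal of time point means and animal means, the median correlation between 2 members over the 27 AT libraries was 0.62, and 95.4% of the 2701 pairs were above 0; over the 21 SM libraries it was 0.778 and 98.4%. All pairs share libraries, depth and normalization. No such value was computed for other genes, so that whether these correlations are particular to the members is not known. In AT the members least like the rest were RPS28, RPL36, RPL28 and RPLP2, with mean correlations with the others of 0.145, 0.186, 0.228 and 0.254.

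Some members differed between animals by far more than between time points. The mean level over an animal's libraries differed between the highest and the lowest animal by a median of 1.43-fold over members in AT (10 animals) and 1.95-fold in SM (8 animals), but by 11.5-fold and 30.9-fold for RPS15A, a 40S protein. RPS15A was 15.2 to 18 CPM in the 3 AT libraries and 6.19 to 7.45 CPM in the 3 SM libraries of animal 22130. In AT, animal 24849 followed at a mean of 45.3 CPM, then 4 animals between 85.4 and 92.0 CPM and 4 animals between 162 and 188 CPM, highest in 21866. The same 2 animals, 22130 and 21866, were the lowest and the highest in SM, at 6.71 and 207 CPM. Animal 21866 had a single SM library, one of the 3 post-treatment libraries named above, and without it the ratio for RPS15A in SM was 16.6. RPL29 also had the same animals at both ends in both tissues, 22130 (36.6 and 21.1 CPM) and 19832 (89.1 and 85.4 CPM). These 2 genes were chosen after their values were seen, and sequence differences between animals, as well as pseudogene copies, were not tested.

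**Figure D5:**
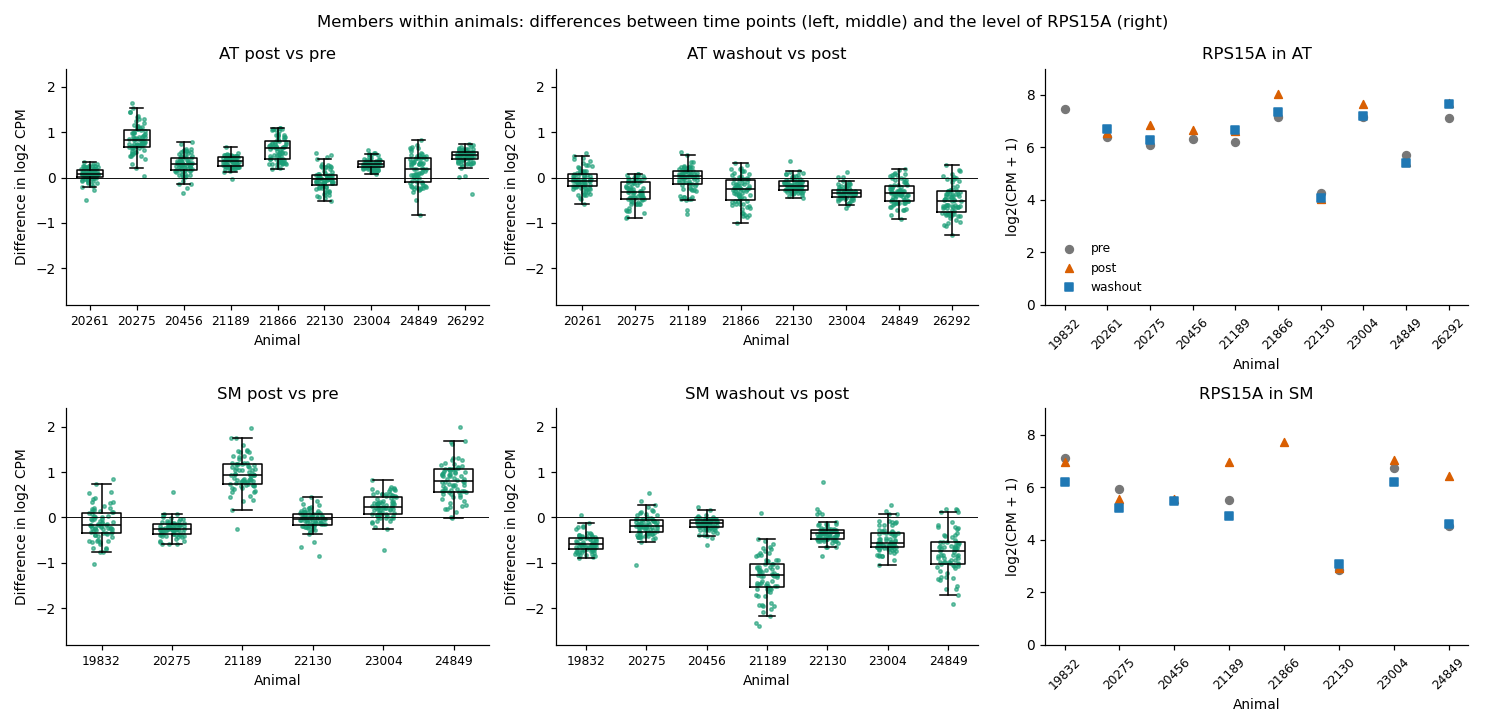
Left and middle, difference in log2 CPM (vertical axis) of each of the 74 members (points) between 2 time points within an animal, with a box for the middle 50% and the median, for AT (top) and SM (bottom). Right, level of RPS15A as log2(CPM + 1) in every library by animal, where animal 22130 lies lowest at each time point in both tissues.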

How the data were processed

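RNA was sequenced from punch biopsies of AT and SM with Illumina TruSeq stranded mRNA libraries. Raw counts per gene were deposited by the authors, who used STAR for alignment against MacaM; the counter is not given in the sources used here. Of 16103 entries, 70 repeated a gene and were dropped. Counts were used for 48 of 51 labelled samples, and 3 SM samples were not analysed here. Genes with at least 0.5 CPM (for this filter by library size without TMM) in 10% of a tissue's libraries were tested. The tests used edgeR 4.0.16 in R 4.3.3 (TMM, quasi-likelihood test, log2 CPM with a prior count of 2). Time point and animal were in the model, with Benjamini-Hochberg adjustment over all genes of the tissue. Depth was 14455195 to 23940980 counts per library.

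The members, the gene lists and the rule for named genes were chosen with earlier results of these data known. Named were members by role, paralogs, and the 3 highest and 3 lowest log2 fold changes of members in each comparison, except for results that are not reported here. Lists of other genes and markers were written from general knowledge. Libraries were paired by the animal in the labels: deviations from group means correlated at a median of 0.352 for the 25 pairs from an animal in AT, against -0.0641 for 326 other pairs, and at 0.279 for 19 pairs against -0.109 for 191 in SM. The fit was tested on simulated data with 200 genes changed by 1.5 on the log2 scale, of which 185 of 200 were recovered in AT post vs pre (13367 genes) and 155 in SM post vs pre (12617 genes), beside 12 and 6 unchanged genes called. The members changed less from pre- to post-treatment, with medians of 0.34 in AT and 0.24 in SM. Recovery of genes at that size was not tested. Alternatives were DESeq2 1.42.0, voomWithQualityWeights of limma 3.58.1, other normalizations and filters, other samples and covariates, and each animal left out. Summaries and plots were made in Python 3.11.15 (pandas 2.3.3, NumPy 2.4.6, matplotlib 3.10.9). No genome sequence of the build was used, so that neither coordinates nor sequences are given. RPL7L1, RPL36A, RPS4Y1 and RPS4Y2 were not analysed here.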

Additional observations from a re-analysis of the deposited data

Results flagged for a closer look

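For the share of counts on members and for 25 genes whose levels are described, each group of libraries in a tissue where the gene was tested (RPL3L in SM only, RPL39L in AT only) was checked for a single library far from the others, 150 groups in all, of which chance singles out about 1 in 20. Such a library was found in 12; the value given for each is the gap to the nearest library divided by the range of the group. In AT pre-treatment, animal 20275 was lowest for the share of counts (0.479; 1.36% against 1.89% for the next) and for RPS6 (0.54; 277 against 463 CPM), and animal 22130 was highest for RPL31 (0.573; 70.1 against 38.7 CPM). In AT post-treatment, animal 21866 was highest for RPS27 (0.539; 572 against 438 CPM) and RPL22 (0.499; 615 against 481 CPM), and animal 20275 for RPL22L1 (0.63; 161 against 90.2 CPM). In AT at washout, animal 24849 was lowest for RPS6 (0.61; 366 against 504 CPM), animal 21189 highest for RPS27 (0.583; 433 against 333 CPM) and animal 22130 highest for RPL26L1 (0.622; 25.4 against 21.8 CPM). In SM, animal 19832 was highest pre-treatment for RPS9 (0.629; 316 against 224 CPM) and RPL14 (0.699; 230 against 143 CPM), and animal 22130 was highest at washout for RPL31 (0.605; 21.5 against 14.3 CPM).

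The change from pre-treatment to washout differed between AT and SM by the interaction test of edgeR's quasi-likelihood fit for 5 genes. AT minus SM was 0.52 for RPL14 (adjusted p = 0.0376), 0.53 for RPL23A (adjusted p = 0.0422), 0.75 for RPL31 (adjusted p = 0.0285), 0.80 for RPL34 (adjusted p = 0.0337) and 1.003 for RPS27L (adjusted p = 0.00909).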

How the results depend on the processing

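The median log2 fold change of members kept its sign in each of the 6 comparisons under every alternative run. With library sizes scaled by TMM, the mean share of counts on members moved by more than its SD in SM at washout alone. Counts of DE members depended on the fit. In AT, post vs pre, 51 became 27 without the replicate block, 27 with only the 2 time points, 18 once the pre-treatment library of 20275 was left out, and 10 to 51 with an animal left out. Washout vs post, 23 lower became 13 with voom, 6 with library size only, 9 with only the 2 time points, 11 with the library identifier series, and 5 to 31 with an animal left out, and 1 member was higher without a filter. Washout vs pre, 2 became 6 with voom, 6 with library size only, 1 without the replicate block, 0 with the identifier series, 0 without the sample of 20275, and 0 to 6 with an animal left out. In SM, washout vs post, 0 lower became 40 with DESeq2, 30 without the replicate block and 67 with the identifier series, and washout vs pre 39 with the identifier series. The 4 members that differed between tissues at washout became 1 without the replicate block, and the 4 lower in SM than in AT became 2 with DESeq2 size factors and 2 without the block. With library size only between tissues, the 44 higher in SM became 3 and the 4 lower became 36. The cause was not tested.

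Some values of genes that were not called changed sign. In AT washout vs post these were RPL23A (0.029 with voom, 0.044 with library size only, -0.089 to 0.017 with an animal left out) and RPS27L (0.048 with voom), in AT washout vs pre RPL8 (0.030 with library size only), and in AT post vs pre RPL37A (-0.031 to 0.14 with an animal left out). In SM post vs pre they were RPL28 (-0.073 with voom, -0.089 to 0.12 with an animal left out), RPLP2 (-0.13 with voom, -0.019 without the block, -0.11 to 0.18 with an animal left out) and RPS2 (-0.0074 with only the 2 time points, -0.10 with the identifier series, -0.12 to 0.099 with an animal left out). Without the 3 SM post-treatment libraries of the last identifier series, an alternative chosen after seeing the data, RPL28, RPLP2 and RPS27A were at -0.095, -0.21 and -0.071. In SM washout vs post RPL3L was at 0.30 with the identifier series and -0.22 to 0.11 with an animal left out. In SM washout vs pre RPL4 was at 0.043 with the identifier series, RPS2 at 0.0023 with voom, and RPL10, RPL4 and RPS2 ranged from -0.088 to 0.066, -0.11 to 0.042 and -0.17 to 0.016 with an animal left out. The earlier quasi-likelihood method of edgeR, also added after seeing the data, moved no count of DE members by over 1.5 times.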

Other observations

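The order of members by size of change was compared between AT and SM, which share animals but no library. Over 74 members, Spearman's rho between the log2 fold changes was 0.189 for post vs pre in both tissues, -0.447 for washout vs post and -0.605 for washout vs pre (Pearson's r 0.245, -0.448 and -0.591), given as a description, since members are not independent.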
